A study of Rattus norvegicus with 88 samples.

Results

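Expression of 7 genes that mark GABA interneurons was followed in the infralimbic cortex (IL), a ventral area of the rat medial prefrontal cortex, by RNA-Seq of polyadenylated RNA. The genes were the rows with the identifiers ENSRNOG00000000007 (Gad1), ENSRNOG00000018200 (Gad2), ENSRNOG00000015393 (Slc32a1), ENSRNOG00000006471 (Pvalb), ENSRNOG00000001837 (Sst), ENSRNOG00000018808 (Vip) and ENSRNOG00000046449 (Npy), and all 7 were found among the 17252 genes of the table. The table itself holds no symbols. Those of Slc32a1 and Vip were checked against identifier and symbol pairs in the study's supplementary tables, and the other 5 symbols were taken as given. None of the 7 rows repeated the values of another row, which would leave a gene indistinguishable from a second one.

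The tissue came from young adult Heterogeneous Stock (HS) rats, an outbred population bred from inbred founder strains. All were group housed, and none had received a behavioral test or a drug, so there was no treated group. The labels gave 88 libraries, 1 per rat, of which 7 were marked as removed and were not analysed here. The other 81 libraries came from 40 females and 41 males of 5 rat batches: 16 rats in batch 2, 25 in batch 3, 24 in batch 4, 1 in batch 5 and 15 in batch 6. Whole dissected tissue of both hemispheres was used, so that fewer cells of a type and less RNA per cell cannot be told apart in any value below.

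GABA is the main inhibitory transmitter of the cortex, and it is made from glutamate by glutamate decarboxylase and loaded into synaptic vesicles by a transporter. Interneurons that release it fall into classes with different targets: cells with parvalbumin mainly inhibit the soma and proximal axon of pyramidal cells, cells with somatostatin mainly inhibit their dendrites, and cells with vasoactive intestinal peptide mainly inhibit other interneurons. Neuropeptide Y is found in part of the somatostatin cells and in neurogliaform cells. In cortex the 3 genes of the GABA machinery are shared by nearly all interneurons, whereas the other 4 genes mark classes.

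The values were log2(adjusted count + 1), where the adjusted count is the estimated number of reads of a gene after the authors' upper-quartile adjustment between libraries. Depth, estimated from the spacing of low values, was 17.9 ± 3.78 M reads per library (SD, n = 81), from 5.89 to 31.9 M reads. The shallowest library was male 14, and the next had 12.2 M reads. The columns of the table fell into 3 alphabetical stretches, called column runs here, with 22, 16 and 43 libraries. What a column run stands for is not in the labels. Runs and rat batches overlapped in part: run 1 held 15 rats of batch 2 and 7 of batch 3, run 2 held 1 rat of batch 2 and 15 of batch 3, and run 3 held 3 rats of batch 3 and all rats of batches 4, 5 and 6. The median depth was 16.8, 15.2 and 19.3 M reads in runs 1, 2 and 3. One library stood apart in these genes: male 38, of batch 2 and run 1, was the highest of the 81 in 3 of the 7 members (Slc32a1, Pvalb and Vip) and the lowest in 6 of 18 other listed genes described below. Where leaving out male 14 or male 38 changed a call described here, the value or count without it is given in most cases.

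All 7 genes were well above the floor of 3 adjusted counts in every rat, the lowest value being 172 adjusted counts (Pvalb in male 7). Levels were not compared between genes, since no transcript lengths were at hand. Gad1 encodes the cytosolic form of glutamate decarboxylase that makes most of the basal GABA of the brain. Its log2 level averaged 12.07 ± 0.11 (SD, n = 81), from 11.81 in male 23 through a median of 12.08 to 12.29 in female 3. Gad2, the form bound to synaptic vesicles and more dependent on its cofactor, had a mean of 12.16 ± 0.13, from 11.90 in the same male 23 through a median of 12.16 to 12.44 in male 37. The highest rat thus had 1.40 times as many adjusted counts of Gad1, and 1.45 times as many of Gad2, as the lowest.

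Slc32a1 encodes the vesicular GABA transporter VGAT, which fills the vesicles. Its log2 level averaged 10.15 ± 0.26 (SD, n = 81), from 9.56 in male 29 through a median of 10.17 to 10.65 in male 38, a 2.13-fold range in adjusted counts. The third gene of the GABA machinery therefore ranged more widely over rats than either decarboxylase.

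Among the class markers, Pvalb, which encodes the calcium-binding protein of fast-spiking interneurons, ranged most. Its log2 level averaged 8.39 ± 0.43 (SD, n = 81), with a lowest value of 7.43, a median of 8.38 and a highest of 9.74 in male 38, a 4.96-fold range from 172 to 853 adjusted counts. Sst encodes the precursor of somatostatin, a peptide that inhibits release of other transmitters and hormones. It had a mean of 11.58 ± 0.35, a lowest value of 10.76 in female 22, a median of 11.59 and a highest of 12.34 in female 15, a 2.98-fold range. Vip encodes the precursor of vasoactive intestinal peptide, which acts through receptors that raise cAMP. Its mean was 10.04 ± 0.20, its lowest value 9.52 in male 26, its median 10.06 and its highest 10.42 in male 38, a 1.87-fold range. Npy encodes the precursor of neuropeptide Y, which lowers excitability in many circuits. It had a mean of 9.56 ± 0.30, a lowest value of 8.95 in female 14, a median of 9.59 and a highest of 10.07 in female 15, a 2.17-fold range. Female 15 was thus highest in both peptides, Sst and Npy.

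**Figure D1:**
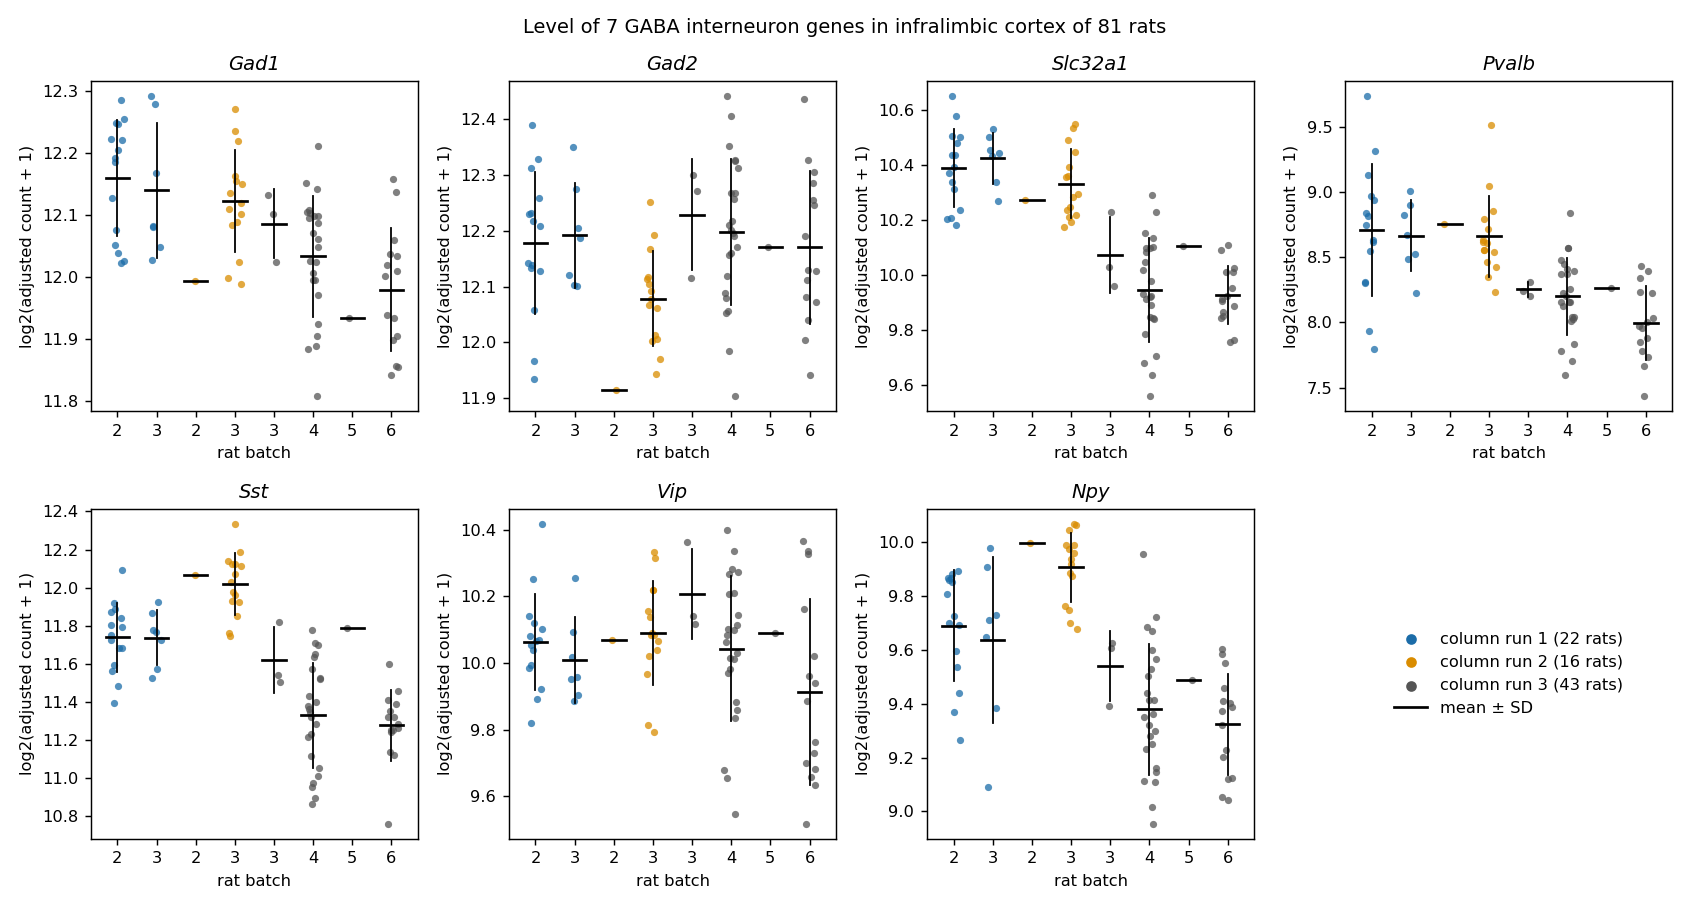
Log2(adjusted count + 1) of each of the 7 genes (vertical axes) in 81 rats, 1 point per rat, by rat batch (horizontal axes) and column run (color), with black lines for mean ± SD. Slc32a1, Pvalb, Sst and Npy, and to a smaller extent Gad1, have lower means in run 3 than in runs 1 and 2, while the batch means of Gad2 lie between 12.13 and 12.20.

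A part of this spread went with batch, run and sex, and another part is the error of counting a limited number of reads. After rat batch, column run and sex were removed in a linear model of the 80 rats outside batch 5, the residual SD was 0.10 for Gad1, 0.12 for Gad2, 0.15 for Slc32a1, 0.34 for Pvalb, 0.21 for Sst, 0.20 for Vip and 0.21 for Npy. Counting error at the estimated depth accounts for an SD of 0.02 for Gad1, Gad2 0.02, Slc32a1 0.04, Pvalb 0.08, Sst 0.03, Vip 0.05 and Npy 0.05. The residual SD was 3.34 (Slc32a1) to 7.90 (Sst) times the counting SD, so that for all 7 genes rats differed by more than read sampling gives. This counting error leaves out any error of dissection, extraction or library preparation, for which there was no repeat.

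The 2 decarboxylase genes had a smaller residual SD than most well-expressed genes, in a ranking that was not matched for level. Counting error is larger at low levels. For Dlx2, another listed gene, with a mean log2 level of 5.24, the counting SD was 0.25. Of the 13048 well-expressed genes, those whose log2 level averaged 5 or more, 94.2% had a larger residual SD than Gad1 and 83.5% a larger one than Gad2, beside 68.3% for Slc32a1. The median residual SD of these genes was 0.18, and 90% of them lay between 0.09 and 0.46. The peptide genes were close to this median, with 43.4% of genes more variable than Vip, 39% more than Sst and 38.7% more than Npy. Pvalb was the most variable member, with 13.7% of genes above it. Batch, run and sex together removed 67.3% of the variance of Slc32a1, 64.1% of that of Sst and 50.8% of that of Npy, but 6.03% of that of Vip and 11.3% of that of Gad2.

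**Figure D2:**
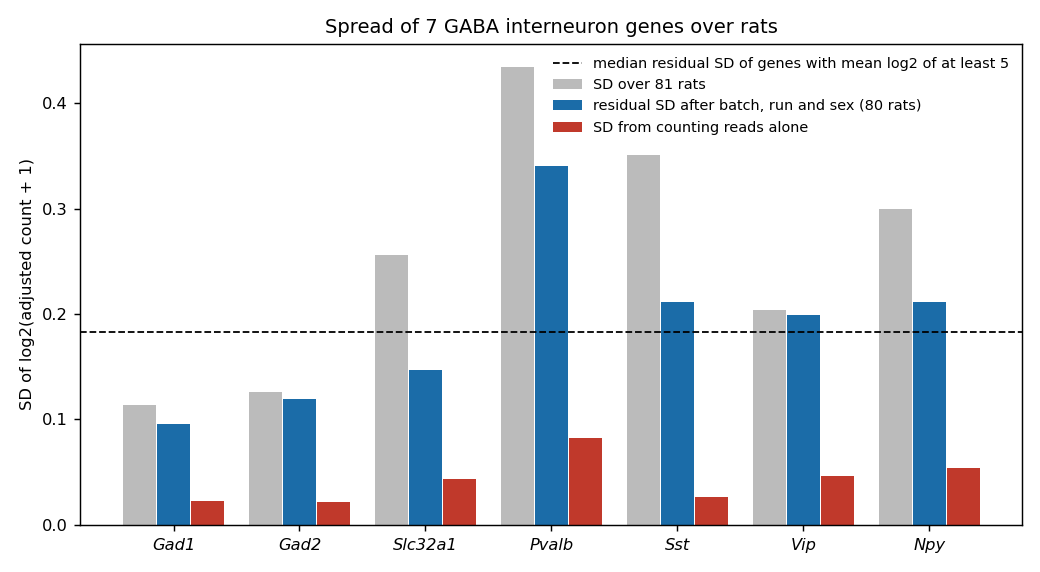
SD of log2(adjusted count + 1) for each gene over 81 rats (grey), after removal of batch, run and sex in 80 rats (blue) and from counting reads alone (red), with the median residual SD of 13048 genes as a dashed line. Gad1, Gad2 and Slc32a1 fall below the dashed line, and Pvalb is the farthest above it.

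Rat batches differed in most genes of the cortex, and in most of the members. Between batches 2, 3, 4 and 6, with sex as a covariate, limma called 9945 of the 17252 genes (57.6%) at a Benjamini-Hochberg adjusted p of 0.05, and 5 of the 7 members: Slc32a1 (adjusted p = 2.94e-15), Sst (1.10e-13), Npy (2.19e-09), Pvalb (3.06e-08) and Gad1 (1.54e-05). Vip (0.085) and Gad2 (0.343) did not pass. The 5 genes were all higher in batches 2 and 3 than in batches 4 and 6. Mean Slc32a1 was 10.38 ± 0.14 (SD, n = 16) in batch 2, 10.33 ± 0.15 (n = 25) in batch 3, 9.95 ± 0.19 (n = 24) in batch 4 and 9.93 ± 0.11 (n = 15) in batch 6. Mean Sst was 11.76 ± 0.19, 11.89 ± 0.22, 11.33 ± 0.28 and 11.28 ± 0.19 in the same order. Mean Pvalb was 8.71 ± 0.49, 8.61 ± 0.31, 8.20 ± 0.30 and 7.996 ± 0.29. The call of Vip depended on the fit: it passed with depth as a covariate (adjusted p = 0.0168), after median centring (0.0418) and without batch 4 (0.0353), and Gad2 passed after quantile normalization (0.0082), under which Gad1 was nearer the threshold (0.0400). Mean Gad1 was 12.15 in batch 2 and 11.98 in batch 6, and mean Gad2 12.16 and 12.17; whether the 2 decarboxylase genes differed in this was not tested.

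Batches 4 and 6 were found in run 3 alone, so the batch differences were also looked at within a run. With column run as a covariate, 0 of the 7 members passed between batches (limma, 1 at an unadjusted p under 0.05), and the number of genes called over the table was 476. Run 3 held 3 rats of batch 3 and none of batch 2. This fit thus set batches 2 and 3 against 4 and 6 through those 3 rats alone, and it can say little about that difference. Within run 1, no gene of the table was called between batches 2 and 3 (0% of 17252 in limma, 784 at an unadjusted p under 0.05), and the differences of the members, batch 3 minus batch 2 with sex as a covariate, ranged from -0.05 (Gad2) to 0.08 (Slc32a1). Without that covariate, mean Gad2 was 12.19 in batch 3 and 12.18 in batch 2. Within run 3, 597 genes (3.46%) were called between batches 4 and 6, 0 of the 7 members among them (limma; 1 at an unadjusted p under 0.05). The member with the largest difference there was Pvalb, lower in batch 6 by 0.20 (SE 0.09, n = 39, limma adjusted p = 0.210).

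Across the 3 column runs, the peptide genes Sst and Npy shared an order. Sst had a lowest value of 11.39, a median of 11.76 and a highest of 12.09 in run 1, a lowest of 11.75, a median of 12.05 and a highest of 12.34 in run 2, and a lowest of 10.76, a median of 11.35 and a highest of 11.82 in run 3. Run 2 was the highest and run 3 the lowest, and 3 of the 43 rats of run 3 reached the range of run 2. Npy had the same order, with medians of 9.72 (9.09 to 9.98), 9.95 (9.68 to 10.07) and 9.39 (8.95 to 9.96), and again 3 of the 43 rats of run 3 reached the range of run 2.

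Slc32a1 followed a different order. Its median was 10.43 (10.18 to 10.65) in run 1, 10.29 (10.17 to 10.55) in run 2 and 9.93 (9.56 to 10.29) in run 3, and 3 of the 43 rats of run 3 reached the range of run 1. Runs 1 and 2 overlapped in nearly all of their rats. The mean adjusted count of Slc32a1 was 1354 in run 1 and 995 in run 3. Pvalb had medians of 8.71 (7.79 to 9.74) in run 1, 8.61 (8.23 to 9.52) in run 2 and 8.16 (7.43 to 8.84) in run 3, with broad overlap of all runs.

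Given rat batch and sex, 2892 genes (16.8%) were called between runs, and 4 of the 7 members: Sst (limma adjusted p = 0.0073), Npy (0.0142), Slc32a1 (0.0243) and Gad2 (0.0460). With depth as a covariate, Sst (0.0203), Npy (0.0333) and Slc32a1 (0.0283) still passed. Given batch, Sst was higher in run 2 than in run 1 by 0.29 (SE 0.09, adjusted p = 0.0187) and lower in run 3 than in run 2 by 0.40 (SE 0.13, adjusted p = 0.0408, limma). Run 3 minus run 1 was -0.11 (SE 0.14, adjusted p = 0.756, limma) for Sst, so the lower level of run 3 against run 1 was not detectable with batch in the model. Npy was higher in run 2 than in run 1 by 0.28 (SE 0.09, adjusted p = 0.0265, limma), whereas run 3 minus run 2 (-0.36, SE 0.13, adjusted p = 0.0712) and run 3 minus run 1 (-0.08, SE 0.14, 0.830) did not pass. Slc32a1 was lower in run 3 than in run 1 by 0.35 (SE 0.10, adjusted p = 0.0353, limma). Gad2 averaged 12.07 ± 0.09 (SD, n = 16) in run 2, 12.18 ± 0.12 (n = 22) in run 1 and 12.19 ± 0.13 (n = 43) in run 3. Given batch, none of its differences between 2 runs passed (run 2 minus run 1 -0.14, SE 0.05, adjusted p = 0.0604; run 3 minus run 2 0.17, SE 0.08, 0.1545; limma), and its call over the 3 runs was lost with depth as a covariate (adjusted p = 0.0922), after median centring (0.0610) and with no intensity trend (0.0534). Gad1, Pvalb and Vip were not called, with adjusted p of 0.616, 0.343 and 0.497.

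Batch 3 was the only one with rats in every run, 7 in run 1, 15 in run 2 and 3 in run 3. The same 3 rats of run 3 carry the differences of run 3 given batch above, so the values below are not separate from those. Within batch 3, 2912 genes (16.9%) were called between runs, and 3 of the 7 members: Sst (limma adjusted p = 0.00068), Npy (0.0179) and Slc32a1 (0.020). Sst was 11.74 ± 0.15 (SD, n = 7) in run 1 and 12.02 ± 0.16 (n = 15) in run 2, and in the 3 rats of run 3 it was 11.82 in female 4, 11.54 in male 19 and 11.50 in male 24. The rats of run 3 thus fell within the range of run 1 for female 4 and male 19 and just below it for male 24. Npy in the same 3 rats was 9.61, 9.39 and 9.63, all below the lowest of the 15 rats of run 2 (9.68). Slc32a1 was 10.23, 10.03 and 9.96, all below the lowest of the 7 rats of run 1 (10.27), and its call was lost without male 19 (adjusted p = 0.0650) or male 24 (0.104). With runs 1 and 2 alone, Sst (adjusted p = 0.0030) and Npy (0.0438) still passed and Slc32a1 (0.363) did not. Gad2 (0.0531) passed without female 4 (0.0267).

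Penk, which encodes the precursor of the enkephalins and is made in some interneurons and in projection neurons of the nearby striatum, moved across runs in the order of Sst and Npy. Its mean was 10.53 ± 0.23 (SD, n = 22) in run 1, 10.73 ± 0.22 (n = 16) in run 2 and 10.32 ± 0.17 (n = 43) in run 3, its lowest value in any rat was 10.03, and it was called between batches (limma adjusted p = 1.61e-09) but not between runs given batch (0.343). Of 21 symbols listed as markers of excitatory neurons, striatal neurons and glia, an identifier was resolved for Penk and Slc17a6 only, and the others were not analysed here. The part of dissection borders or of other cell types in the batch and run differences was not tested.

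The sexes did not differ detectably in any of the 7 genes. With batch as a covariate, 34 genes (0.197%) were called between males and females, and 0 of the 7 members (limma; 0 also at an unadjusted p under 0.05). Male minus female differences ranged from -0.08 (SE 0.08) for Pvalb to 0.02 (SE 0.02) for Gad1, with limma adjusted p between 0.831 and 0.985 (80 rats), and the sign of the small differences of Slc32a1 (-0.01) and Sst (-0.01) changed in some alternatives. The interaction of sex and batch called 0 genes (0% of 17252 in limma, 531 at an unadjusted p under 0.05). With batch, run and sex in the model, 1156 genes (6.70%) varied with depth, and 1 of the 7 members: Vip rose by 0.22 (SE 0.07) per doubling of depth (limma adjusted p = 0.0376). Without male 14 this call was lost (adjusted p = 0.241, slope 0.23), and 0 genes of the table were called with depth (2421 at an unadjusted p under 0.05, limma).

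Whether the genes rise and fall together from rat to rat was examined in the residuals after batch, run and sex (80 rats), where the shared shifts between runs are gone. Each member was taken in turn as the predictor of every other gene in limma, and a pair was called where the adjusted p passed in the fits of both genes. Of the 21 pairs, 6 were called. The members differed in how many genes of the table went with them: 310 of 17251 (1.80%) were called with Gad1, 3735 (21.7%) with Gad2, 4158 (24.1%) with Slc32a1, 3220 (18.7%) with Pvalb, 4832 (28%) with Sst, 3472 (20.1%) with Vip and 1201 (6.96%) with Npy. The count with Gad1 was 662 without male 14 and 490 without male 38, and that with Pvalb was 2075 without male 38. Of the 6 other members, 2 were called with Gad1, 2 with Gad2, 1 with Slc32a1, 2 with Pvalb, 2 with Sst, 2 with Vip and 1 with Npy. In a simulation where 200 of 17252 genes had an r of 0.5 to a predictor, 71.5% were recovered, so weaker relations can be missed. The r needed for a call differed between members, since it depends on how many genes of the table are called. Among the listed genes described below, Gabrg3 passed with Gad2 at a partial r of 0.32 (limma adjusted p = 0.0286). Syt2 did not pass with Gad1 at 0.33 (0.0932).

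The decarboxylase genes went together most closely. Gad1 and Gad2 had a Pearson's r of 0.69 (Spearman's rho 0.70, permutation p = 1e-05 for both, which is the smallest that 100000 permutations give), and r was 0.67 without the 2 rats farthest from the median of Gad1. Here and in the pairs below, the 2 farthest rats were chosen by the gene named first alone. Within runs 1, 2 and 3 the r of Gad1 and Gad2 was 0.65, 0.43 and 0.74 (n = 22, 15 and 42). The larger limma adjusted p of the 2 fits was 1.82e-07, and 63 of the 80 rats lay on the same side of zero for both genes. The log2 ratio of Gad1 to Gad2 had a residual SD of 0.09, below that of either gene. Among 12979 well-expressed genes that repeat no other row, none had a higher r with Gad1 than Gad2 had.

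Over the 80 rats, Slc32a1 was not called with either decarboxylase. Its r was 0.11 with Gad1 and 0.02 with Gad2 (limma adjusted p of 0.655 and 0.938 for the larger of each pair of fits). It went with Sst, at r = 0.65 (rho 0.63, permutation p = 1e-05 for both, limma adjusted p = 7.07e-08), 0.62 without the 2 farthest rats, and 0.51 (0.38 without male 38), 0.43 and 0.73 within runs 1, 2 and 3. Of the 80 rats, 55 lay on the same side for both genes. Within single runs the decarboxylases were not always apart from Slc32a1: its r with Gad1 was 0.67 in run 1, 0.16 in run 2 and -0.07 in run 3, and its r with Gad2 was 0.26 (0.55 without male 38), 0.64 and -0.12 (n = 22, 15 and 42). The difference of slopes between runs was not called for Gad1 (adjusted p = 0.999 and 0.446, limma) or Gad2 (0.423 and 0.698).

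Sst and Npy, which are made in part by the same interneurons, had an r of 0.59 (rho 0.61, permutation p = 1e-05 for both, limma adjusted p = 0.00011 for the larger), 0.57 without the 2 farthest rats, and 0.78, 0.62 and 0.53 within runs 1, 2 and 3. The same side of zero was shared by 61 of the 80 rats. Slc32a1 and Npy, each of which went with Sst, had an r of 0.19 with each other and were not called (adjusted p = 0.316, limma).

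Pvalb went with Vip and with Gad1. Pvalb and Vip had an r of 0.56 (rho 0.55, permutation p = 1e-05 for both, limma adjusted p = 1.86e-05 for the larger), 0.51 without the 2 farthest rats and 0.52 without male 38, which had the highest value of both genes. Within runs 1, 2 and 3 the r was 0.61, 0.33 and 0.66, and within run 1 it was 0.45 without male 38. Gad1 and Pvalb had an r of 0.50 (rho 0.50, permutation p = 1e-05 for both, limma adjusted p = 0.0042 for the larger), 0.47 without the 2 farthest rats, and 0.55, 0.32 and 0.62 within the runs. Pvalb and Sst, the markers of the 2 largest interneuron classes, had an r of -0.03 (limma adjusted p = 0.888).

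The weakest called pair was Gad2 and Vip, at r = 0.31 (rho 0.27, permutation p = 0.0046 and 0.0135, limma adjusted p = 0.0342 for the larger). The call was lost with depth as a covariate (adjusted p = 0.0907), after quantile normalization (0.0885), with inverse normal values (0.0679), with batch and sex alone removed (0.0568) and with no adjustment (0.0703), at a partial r of 0.26 to 0.29. Its sign was not the same in the 3 runs: r was -0.32 in run 1 (-0.11 without male 38), -0.08 in run 2 and 0.55 in run 3 (n = 22, 15 and 42). A test of whether the slope differed between runs was added after these values were seen. Its limma adjusted p was 0.0399 for Vip on Gad2 (0.0349 without male 14). For Gad2 on Vip it was 0.0511 (0.0460 without male 14). In the fits with male 14, 593 (3.44%) and 3307 (19.2%) of 17251 genes were called. The difference was thus not called in both fits with male 14, but was called in both without it. The same test passed in 1 of 2 fits for Pvalb and Sst, whose r was 0.48 (0.31 without male 38), 0.12 and -0.32 in runs 1, 2 and 3 (adjusted p = 0.0328 for Pvalb on Sst and 0.0957 for Sst on Pvalb, with 1735 genes or 10.1% and 32 genes or 0.185% called, limma). Without male 38 no member passed this test with any other.

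**Figure D3:**
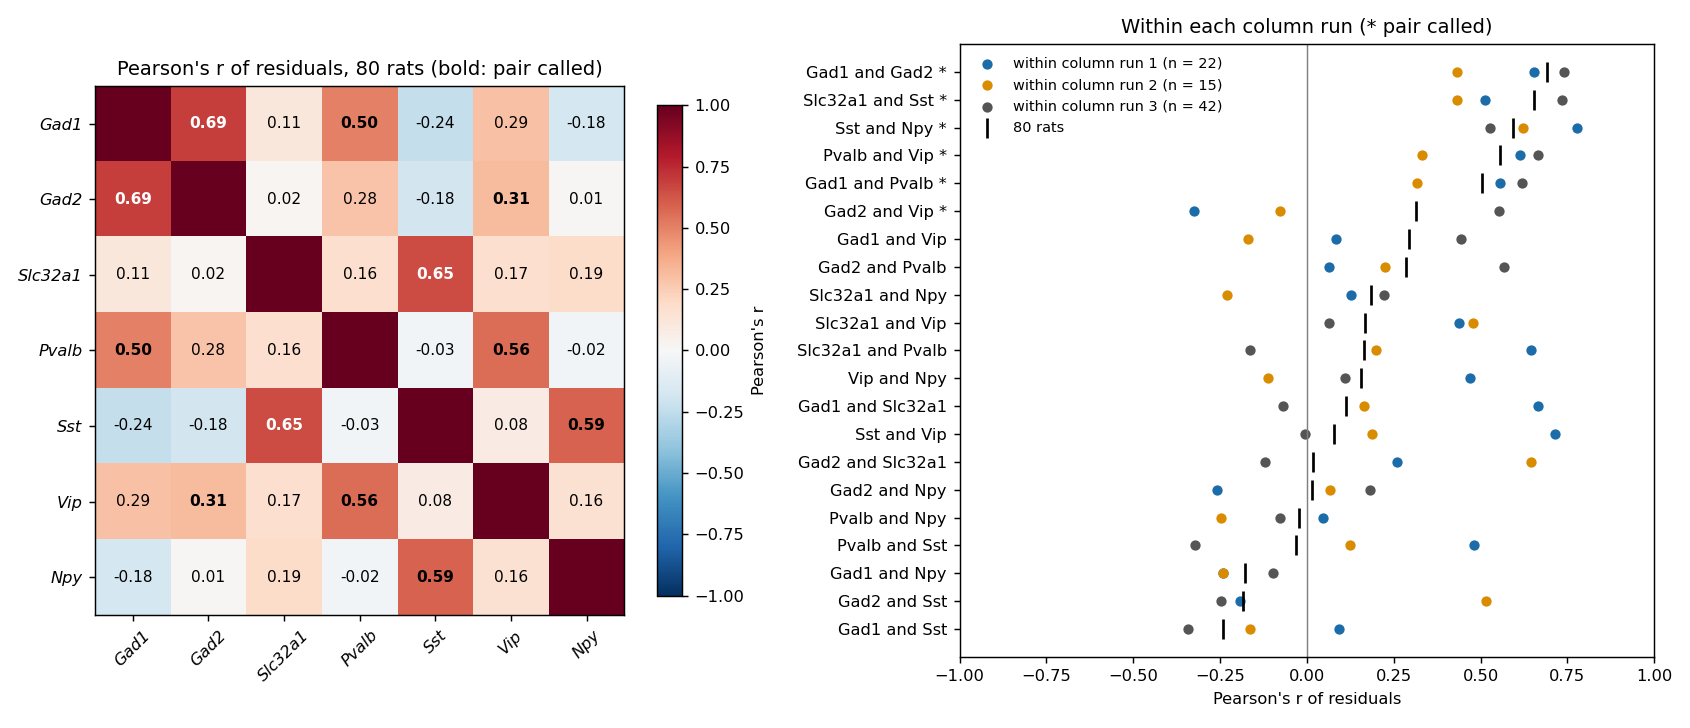
Pearson's r of the residuals after batch, run and sex for the 21 pairs of the 7 genes: at left over 80 rats, with called pairs in bold, and at right within each column run (colored points; n = 22, 15 and 42) beside the value over 80 rats (black tick). Of the 6 called pairs, 5 have an r above 0.3 in every run, and Gad2 and Vip do not.

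**Figure D4:**
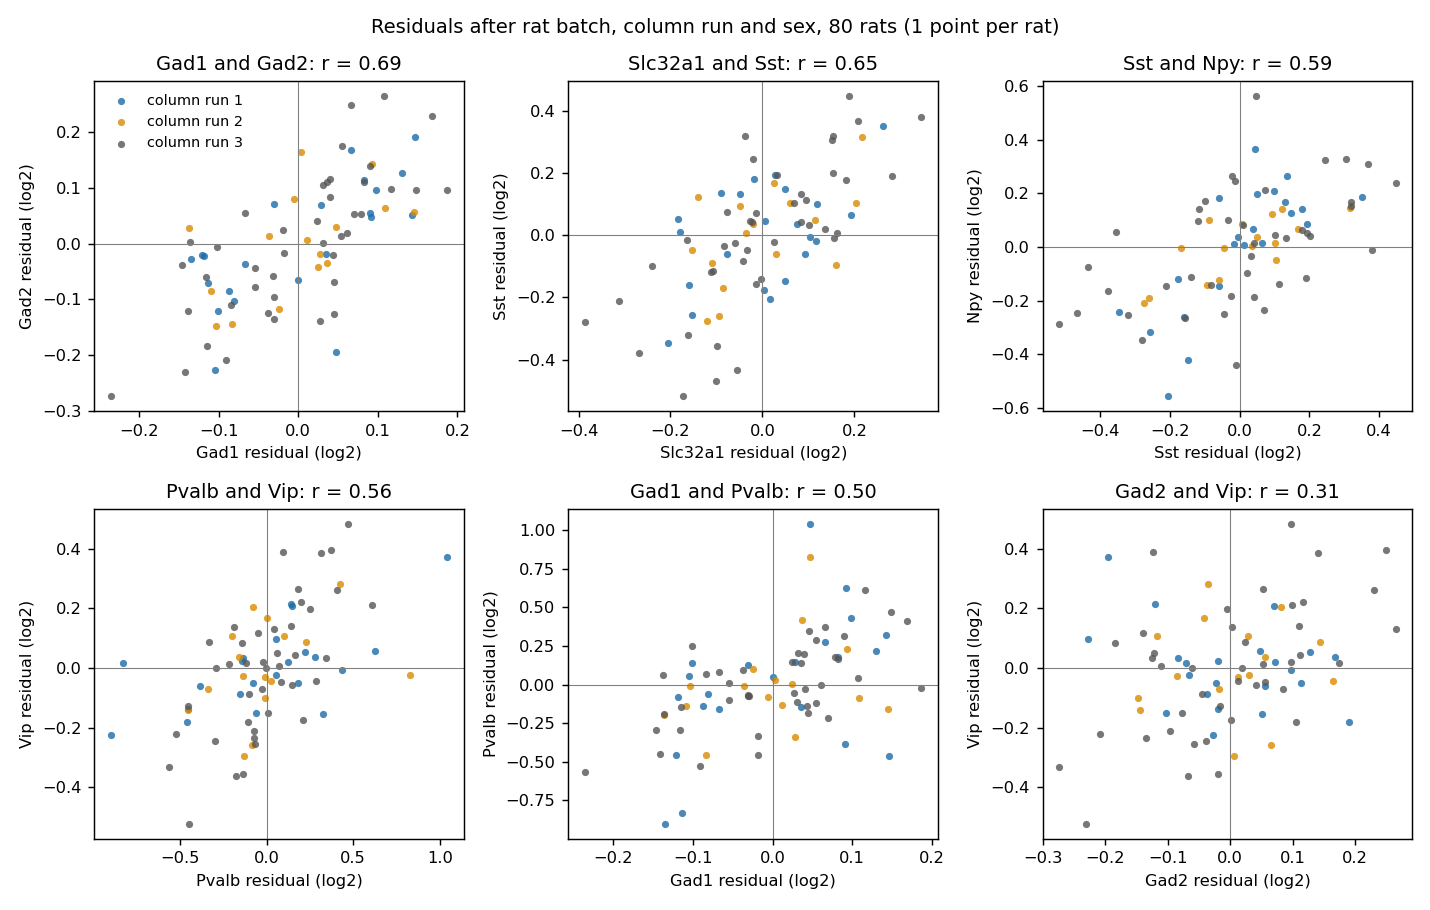
Residual of one gene (vertical axes, log2) against that of another (horizontal axes, log2) for the 6 called pairs, 1 point per rat (80 rats), colored by column run. The points of Gad1 and Gad2 (r = 0.69) follow a line most closely, and those of Gad2 and Vip (r = 0.31) least.

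The number of called pairs depended on what was removed first. With no adjustment 13 pairs were called, 5 of the 6 among them. With depth as a covariate 5 were called, all but Gad2 with Vip, which was also lost in 3 alternatives that called 6: another pair stood in its place with batch and sex alone removed (Gad2 with Sst), with inverse normal values (Gad2 with Pvalb) and after quantile normalization (Gad1 with Sst). With the first 5 expression components as covariates 2 were called (Gad1 with Gad2, and Sst with Npy), and with the first 20 only Gad1 with Gad2. The size of r was not lost in all of these: with 20 components the partial r was 0.55 for Sst with Npy and 0.49 for Gad1 with Pvalb, but 0.31 for Slc32a1 with Sst, 0.24 for Gad2 with Vip and 0.07 for Pvalb with Vip. Such components are themselves sums of gene levels over rats and can hold the variation of the members.

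The gene most like each member outside the 7, among 12979 genes, was looked for by the r of the residuals over the 80 rats. For both decarboxylases it was Kcnc2 (ENSRNOG00000004077), which encodes a Kv3 potassium channel subunit of fast-spiking interneurons, at r = 0.72 with Gad2 and 0.59 with Gad1. Kcnc2 was the only gene with a higher r to Gad2 than Gad1. For Npy, no gene exceeded Sst, whereas 20 genes exceeded Sst for Slc32a1, 34 exceeded Slc32a1 for Sst, 97 exceeded Pvalb for Vip and 106 exceeded Vip for Pvalb. The highest r of all was between Slc32a1 and ENSRNOG00000020038 (0.75), followed by Vip and ENSRNOG00000050767 (0.73), for which no symbol was at hand.

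Of 59 symbols listed as other genes of the GABA system and its interneurons, 17 are reported here, whose identifiers were resolved through the study's supplementary tables. The tables that gave these identifiers list genes with genetic effects on expression, in part from these samples, so the 17 are not a neutral selection. Between batches 9 of the 17 passed (57.6% of all genes): the GABA receptor subunits Gabrd and Gabrg3, the interneuron genes Adarb2, Nos1 and Reln, the peptide gene Penk, and the peptide receptors Npy2r, Sstr1 and Sstr4. Given batch, 3 of 17 passed between runs (16.8% of all genes), namely Adarb2, Calb1 and Nos1, and none between the sexes. Nos1 encodes the neuronal nitric oxide synthase found in long-range somatostatin and Npy cells, and its run means had the opposite order to those of Sst. Its mean was 9.69 ± 0.45 (SD, n = 22) in run 1, 9.49 ± 0.36 (n = 16) in run 2 and 10.20 ± 0.23 (n = 43) in run 3. Other listed genes shared this order, such as Calb1 (11.24, 11.21 and 11.36) and Sstr4 (7.70, 7.63 and 7.96). After batch, run and sex, the partial r of Nos1 with Sst was -0.05 (limma adjusted p = 0.82). Between batches 4 and 6 within run 3, Reln was lower in batch 6 by 0.19 (SE 0.05, limma adjusted p = 0.0234) and Sstr1 higher by 0.14 (SE 0.04, 0.0495). Without male 14, 1 of the 18 listed genes in place of 2 was called there, beside 773 genes of the table (4.48%, limma). Between all batches, 10 of the 18 in place of 9 were then called, beside 59.5% of all genes.

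These genes went with different members. The partial r from the limma fits is given, with 18 genes counted when Slc17a6, the vesicular glutamate transporter VGLUT2, is included. With Gad1, 2 of 18 were called (1.80% of all genes): Kcnc2 (0.59) and Reln (0.52), which encodes the secreted protein reelin. With Gad2, 4 of 18 were called (21.7% of all genes), the same 2 at 0.71 and 0.56, and Calb1 (0.37) and Gabrg3 (0.32). The decarboxylases thus shared these 2 partners, which is not separate from their r of 0.69 with each other. Calb1 had a partial r of 0.30 with Gad1 and was not called (limma adjusted p = 0.134).

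With Slc32a1, 1 of 18 was called (24.1% of all genes): Gabrd (0.51), the subunit of extrasynaptic GABA receptors. With Sst, 3 of 18 were called (28%), Crhbp (0.43), Penk (0.40) and Gabrd (0.36). With Npy, 5 of 18 were called (6.96%): Crhbp (0.55), Penk (0.34) and Slc17a6 (0.34) with a positive sign, and Adarb2 (-0.38) and Reln (-0.36) with a negative one. Crhbp, a secreted protein that binds corticotropin-releasing hormone and is made in somatostatin cells, thus went with both peptides. Nos1, also placed in somatostatin and Npy cells above, was called with neither (partial r -0.05 with Sst and -0.06 with Npy).

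With Pvalb, 5 of 18 were called (18.7%): Syt2 (0.50), a synaptotagmin of the terminals of parvalbumin cells, and Kcnc2 (0.34) with a positive sign, and Nos1 (-0.45), the somatostatin receptor Sstr4 (-0.41) and Slc17a6 (-0.33) with a negative one. With Vip, 4 of 18 were called (20.1%), Penk (0.39), Syt2 (0.35) and Kcnc2 (0.34), and Sstr4 (-0.40). Some of these calls changed when 1 library was left out, in part with little change in partial r. That of Penk with Npy was 0.34 with and without male 38. Without male 38, Nos1 (partial r -0.31, adjusted p = 0.0567) and Slc17a6 (-0.31, 0.0528) were no longer called with Pvalb, nor Gabrg3 with Gad2 (0.26, 0.111) or Penk with Npy (0.34, 0.0528), while Crhbp and Syt2 were added with Gad2 and Npy2r with Sst (limma). Without male 14, Kcnc2 (0.28, 0.0720) and Syt2 (0.30, 0.0532) were no longer called with Vip, nor Adarb2 (-0.34, 0.0512), Reln (-0.34, 0.0515) and Slc17a6 (0.31, 0.0750) with Npy, while Syt2 was added with Gad1 and Gad2, Adarb2 with Pvalb, and Crhbp and Nos1 with Vip (limma). Syt2 was low in these libraries, averaging 4.50 on the log2 scale and a residual SD of 0.61 against a counting SD of 0.35, and it was also called with depth (adjusted p = 0.0181, limma, before removal of male 14).

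**Figure D5:**
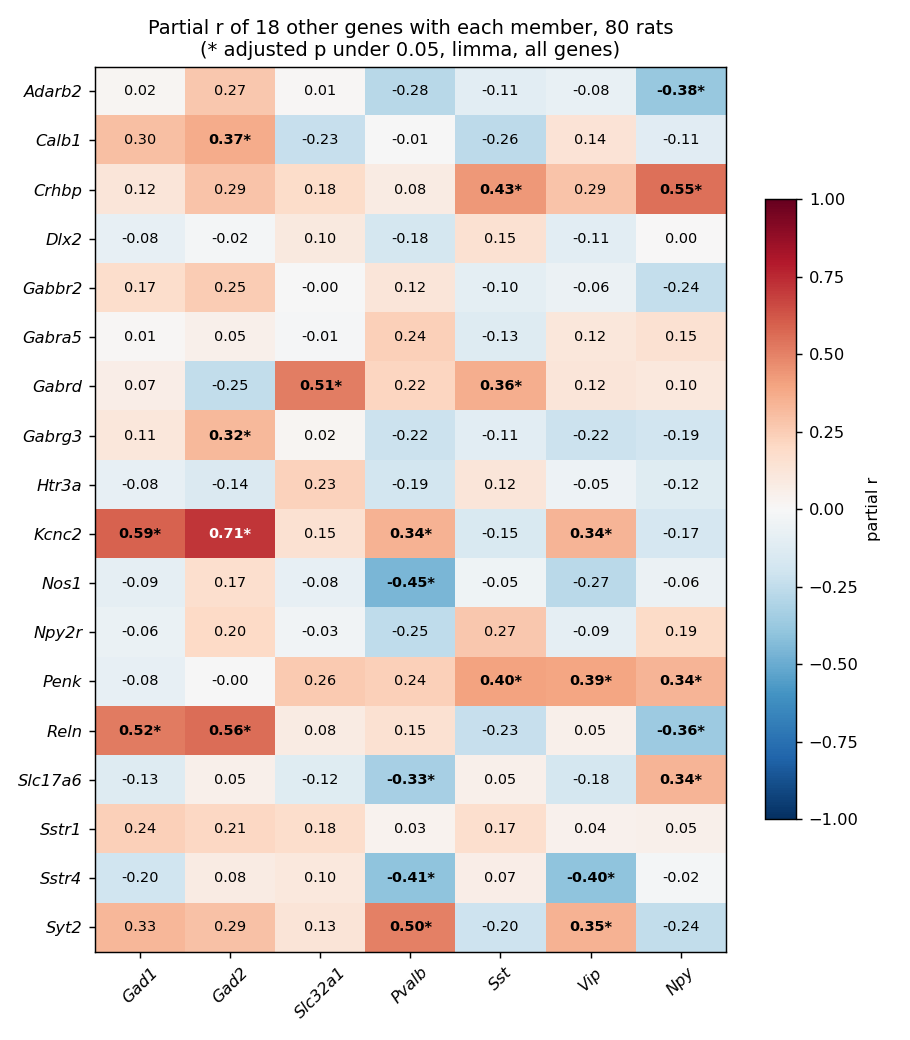
Partial r (color and number) of 18 other genes (rows) with each of the 7 members (columns) over 80 rats, after batch, run and sex, with an asterisk where the limma adjusted p over all genes was under 0.05. Kcnc2 and Reln have their highest values with Gad1 and Gad2, Crhbp with Npy and Syt2 with Pvalb.

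The promoters of Sst, Npy and Slc32a1 are shown because these 3 genes were called between runs within batch 3 and Sst went with each of the other 2. They are the RefSeq windows of the build GRCr8 from 250 bases before to 50 after the annotated start of the gene, found by symbol, while the expression values rest on an older annotation. Capitals mark the cAMP response element TGACGTCA, the site bound by CREB, or its shorter core TGACG, both searched on both strands, and a whole element also counts as a core. The Sst window is chr11:90461296-90461595 on the plus strand, that of Npy is chr4:80211861-80212160 on the plus strand, and that of Slc32a1 is chr3:167686995-167687294 on the plus strand.
Sst: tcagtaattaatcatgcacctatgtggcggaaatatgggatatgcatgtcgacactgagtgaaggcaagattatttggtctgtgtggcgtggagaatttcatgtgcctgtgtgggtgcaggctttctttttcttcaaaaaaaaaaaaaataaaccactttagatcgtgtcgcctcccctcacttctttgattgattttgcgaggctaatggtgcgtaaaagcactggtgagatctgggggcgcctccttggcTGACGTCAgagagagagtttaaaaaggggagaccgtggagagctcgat
Npy: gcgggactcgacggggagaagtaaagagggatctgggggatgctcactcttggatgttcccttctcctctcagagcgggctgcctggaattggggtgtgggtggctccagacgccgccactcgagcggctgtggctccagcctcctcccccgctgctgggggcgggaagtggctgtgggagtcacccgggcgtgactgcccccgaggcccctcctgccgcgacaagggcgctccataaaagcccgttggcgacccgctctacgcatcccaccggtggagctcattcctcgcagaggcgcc
Slc32a1: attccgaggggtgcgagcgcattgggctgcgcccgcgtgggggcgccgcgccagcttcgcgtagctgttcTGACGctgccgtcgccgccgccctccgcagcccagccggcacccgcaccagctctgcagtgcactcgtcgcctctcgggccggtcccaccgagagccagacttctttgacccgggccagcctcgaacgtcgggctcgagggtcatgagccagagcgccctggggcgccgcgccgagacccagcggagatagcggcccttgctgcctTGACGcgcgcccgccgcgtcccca

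The Sst window held the whole element, beginning at base 253 of 300, which 1.83% of 33469 rat promoter windows of this length hold. The Slc32a1 window held the core at bases 71 and 277 on the strand shown, and the Npy window held neither. Among the other members, the Vip window (chr1:44470230-44470529) had the core at base 154 and the Pvalb window (chr7:111666240-111666539, minus strand) at base 10, while those of Gad1 and Gad2 had none. The core on either strand is found in 21.2% of all windows. These matches describe letters in a window and say nothing of binding.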

How the data were processed

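RNA of dissected IL tissue was sequenced as 1 library of polyadenylated RNA per rat, on single-end reads. According to the study's methods and processing notes, the authors trimmed reads with cutadapt, estimated counts per gene with RSEM against the Ensembl rat transcriptome (Rnor_6.0) and adjusted libraries by upper quartile. No versions are given. The authors deposited log2 values of the adjusted count plus 1 for 17252 genes and 81 libraries, with no column left over. RSEM divides reads that fit several genes.

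Since the values are logged and adjusted, no count model was used. Adjusted counts per read were estimated from the spacing of low whole numbers (factors of 0.52 to 4; within 1% of the truth in 97.5% of 40 simulated libraries), which gave the depth and the counting SD. Intervals and floors cover counting error only. Linear models were fitted with limma 3.58.1 (R 4.3.3; lmFit, eBayes with intensity trend) over the whole table, with Benjamini-Hochberg adjustment over all genes and a threshold of 0.05, two-sided. Tests of batch had sex as covariate, tests of sex had batch, and tests of run had both. The single rat of batch 5 was left out of fits. Pseudocount 1 understates changes of low genes. Residuals were correlated with numpy 2.4.6, with 100000 permutations. Replicate numbers only name rats. The limma tests were tested on simulated data with 200 of 17252 genes changed: shifts of 2 residual SDs were recovered in 100% of genes for batch, 91% for run and 100% for sex, with 8, 11 and 11 other genes called.

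All 7 members were named; of other genes, the one most like each member by residual r (at most 2 identifiers without a symbol) and the listed genes with a resolved identifier, of which 1 is not reported here. Alternatives were a filter at a mean log2 of 5, other scalings, pseudocount 10, other covariates, no trend, inverse normal values, and leaving out batches or libraries. Those that leave out male 38 or a run 3 rat of batch 3, those that leave out male 14 or male 38 for the listed genes, and the tests of slopes between runs, were chosen after seeing the data. The members, lists and tests were chosen with earlier results of these data known. The RefSeq gene table matched 0 identifiers of the expression table, all 7 members were matched to promoters by symbol, and protein sequences were not used here.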

Additional observations from a re-analysis of the deposited data

Results flagged for a closer look

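In groups of 4 to 10 rats of 1 batch and sex, or of batch 3 in run 1, 28 sets of values of a member were examined for a rat far from the others, and 2 were found, both in Sst and both in batch 6. By chance about 1 in 20 such sets gives one. Among the 8 females of batch 6, female 22 had a log2 value of 10.76, with the nearest at 11.14 and the highest at 11.45, so that its gap to the nearest was 0.541 of the whole range. Among the 7 males of batch 6, male 20 had a value of 11.60, with the nearest at 11.32 and the lowest at 11.12, a gap of 0.583 of the range. Female 22 was also the rat with the lowest Sst of all 81.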

How the results depend on the processing

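No paired analysis was possible because a rat contributed a single library and replicate numbers only name rats. With column run as a covariate, genes called between batches fell from 9945 to 476 and members from 5 to 0; without the batch term, 10595 genes were called between runs in place of 2892. Genes called between the sexes were 34, and 18, 19 and 20 without batches 3, 4 and 6. The interaction of sex and batch called 1 gene with a pseudocount of 10 and 0 otherwise. Within batch 3, runs 1 and 2 alone called 9.84% of genes, and leaving out 1 rat of run 3 called between 10.81% (without male 24) and 15.04% (without female 4), in place of 16.9%. Without male 14, genes called with depth fell from 1156 to 0 and members from 1 to 0. Called pairs were 6, and 13 with no adjustment, 5 with depth as a covariate, 2 with 5 components and 1 with 20. Signs changed for Gad2 and Vip within runs 1 and 2 (-0.324 and -0.0763), and for the sex difference of Slc32a1 without batch 3 (0.0331) and of Sst with run as a covariate (0.00103), without batch 2 (0.00661) and without batch 3 (0.0612). The causes were not tested. Leaving out male 38 kept all 6 called pairs and added Gad2 with Pvalb. The limits of the data are the single library per rat and the confounding of batches 4 and 6 with run 3. Counting error at the estimated depth was below the residual SD of every member.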

Other observations

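The single rat of batch 5, female 16 of run 3, which entered no test, had log2 values of 11.93 for Gad1, 12.17 for Gad2, 10.10 for Slc32a1, 8.27 for Pvalb, 11.79 for Sst, 10.09 for Vip and 9.49 for Npy. It had the highest value of the 81 libraries in Npy2r and Slc17a6. Sst and Vip had an r of the residuals of 0.71 within run 1 (0.61 without male 38; n = 22 and 21), beside 0.19 in run 2 and -0.01 in run 3; the slopes were not called as different (limma adjusted p = 0.303 and 0.127).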
